A study of Mus musculus with 104 samples.

Results

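Cytosolic ribosomal protein genes encode the proteins of the large (Rpl) and small (Rps) subunits of the ribosome that works in the cytoplasm. They were chosen by name, as the genes of the count tables called Rpl or Rps plus a number, with an optional a, l, x or y and a further digit, leaving out Rpl22, Rpl22l1, Rps27l and Rpl39l. This gave 77 of the 24958 genes, 46 of the large and 31 of the small subunit. Of these, 71 averaged at least 5 CPM over all libraries (counts scaled to the same total of all genes in every library), and the other 6 (Rpl26, Rpl30, Rpl3l, Rps27, Rpl34 and Rpl32l) averaged less.

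Each ribosome needs 1 copy of almost every one of these proteins, so their mRNAs are made in similar amounts and are among the most abundant of a growing cell. Most of the mRNAs begin with a terminal oligopyrimidine tract, called TOP, a C followed by further pyrimidines, through which Larp1 and the growth-sensing kinase complex mTORC1 control their translation and stability. Stem cells before and around implantation grow fast, and their demand for ribosomes is high. The mRNAs are short, so the measured share of a library also depends on how that library represents short transcripts.

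Bulk RNA-seq of mouse cells was available as counts for 104 libraries in 24 groups. Cells of the TC1-GFP embryonic stem cell line, wild type unless stated, were grown in 2MYCP medium (mTBLCs, the totipotent blastomere-like stem cells of the study, n = 7, passages 1 to 19, of which passages 6, 8, 14 and 19 are called established), in 2MYCP on gelatin (n = 2, passages 7 and 8), in 2MYP medium (n = 2, passages 7 and 8), in 2MYC medium (n = 6, passages 1 to 6), in 2MYCP with Ctnnb1 knocked out or with ICG001, a blocker of the contact of beta-catenin with its co-activator CBP (n = 1 each, passage 7), and in S/L medium as pluripotent stem cells (mPSC, n = 3). Time courses of up to 96 h followed mTBLCs, as the names of their count tables say, in SFH (n = 23), S/L (n = 20) and NTF medium (n = 7). TELC and PreLC cells (n = 3 each, passages 0 to 2) were grown in SFH medium. Embryoid bodies from mTBLCs and from TC1 cells (n = 4 each, days 3, 8, 10 and 12) were grown in serum medium. Lines from blastomeres of ICR mice, in 2iLP medium and titled 4nM or 2-5nM (n = 2 each, passages 4 and 5), and 1 ICR blastocyst at embryonic day 3.5 came from another mouse stock. The rest were 2 blastoids in TNKM medium, 1 EB-TSC library in TSC medium and 10 libraries whose titles name ZHBTc4 and whose labels name TC1-GFP. ZHBTc4 is a line in which doxycycline switches off Pou5f1. Of these 10, 5 were grown in 2MYCP with doxycycline (passages 1 to 4 and 12) and 1 without (passage 12), 2 in 2MYC with doxycycline (passages 2 and 3), and 1 each in S/L with doxycycline (passage 1) and without. The labels do not expand the names of the media, nor TELC or PreLC. The 2MYP libraries are titled withoutC, and the name of their count table says without CHIR. Nothing in them tells whether the libraries of a group are separate cultures, and p-values therefore reflect only how these libraries vary. The 3 courses, mTBLCs, gelatin, 2MYP, 2MYC, TELC, PreLC and blastomere libraries came in separate count tables. Of the mPSC libraries, the one titled passage 0 came in the count table of the mTBLCs. The others came in those of the 2MYC cells and of the Ctnnb1 knock-out. When levels are compared between these groups, medium or cell state mostly coincides with the table, and their effects cannot be told apart.

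Depth was 1.04 M to 57.0 M counts per library (median 22.8 M), and the 95% Wilson interval of a library's ribosomal protein share was at most 0.0759 percentage points wide on each side, for counting error only. Ctnnb1 stood at 174 CPM in the knock-out library and at 424 CPM with ICG001, 512 and 973 CPM on gelatin and 830 to 926 CPM in the 7 mTBLC libraries. Markers of fibroblasts, the usual feeder cells (Col1a1, Col1a2, Col3a1, Col6a3, Prrx1, Lox and Thy1), summed to 477 to 1815 CPM in mTBLCs, 16.1 and 26.9 CPM on gelatin, 3161 to 4780 CPM in the blastomere lines and 544 to 1169 CPM in mPSCs. The 2-cell stage markers Zscan4c and Zfp352 summed to 44.9 to 114 CPM in mTBLCs, 1.85 to 9.80 CPM in 2MYC cells and 0.15 to 6.88 CPM in mPSCs. In bulk RNA, fewer cells of a type and less RNA per cell cannot be told apart. Some libraries stood apart in how they represent short genes. For each library, the log2 level of each gene relative to its mean over the 104 libraries was regressed on the log10 of gene length, and the slope of that line is called the length slope. A negative slope means that short genes are counted more than in the other libraries. It was -0.5 or lower in 16 libraries and above -0.5 in 88.

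The promoter windows of RefSeq (mouse build GRCm38.p6) held 57 of the 77 genes, in 67 start sites. On the gene's own strand, the pattern of a C followed by at least 4 further C or T letters began exactly at the annotated start in 19.4% of these 67 start sites and in 2.51% of all 32851 start sites. Within 5 bases of the start it was present in 43.3% and 18.3%. The other strand and other motifs were not searched. Of 11 windows read for named members, 4 hold the pattern beginning within 5 bases of the start and 7 do not. The 4 with it are shown, to let the tract be seen, beside the paralogue pair Rpl10l and Rpl10, neither of which has it there. Shown are 15 bases on each side of the annotated start, with the pattern that begins within 5 bases of it in capitals. In Rpl39, Rpl12 and Rpl10l the bases shown hold the pattern farther from the start as well, left in lower case.
Rps6, chr4:86857353-86857382, minus strand: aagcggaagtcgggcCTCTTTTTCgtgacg
Rps2, chr17:24720048-24720077, plus strand: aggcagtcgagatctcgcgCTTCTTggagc
Rpl39, chrX:37085208-37085237, minus strand: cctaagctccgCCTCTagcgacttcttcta
Rpl12, chr2:32961697-32961726, plus strand: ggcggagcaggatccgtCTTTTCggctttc
Rpl10l, chr12:66284387-66284416, minus strand: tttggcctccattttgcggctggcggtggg
Rpl10, chrX:74270801-74270830, plus strand: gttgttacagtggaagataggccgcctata

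In established mTBLCs the members spanned a wide range of levels per length. The highest were Rpl41, the shortest member protein, at 2449 CPM per kilobase, Rps26 at 1766, Rps15 at 1541, Rpl23a at 1471 and Rps18 at 1414. Rpl4, which lines the exit tunnel of the large subunit, had the highest level not divided by length (2057 ± 99.2 CPM, SD, n = 4) and 1338 CPM per kilobase. At the other end stood Rpl26, with a count in only 4 of 104 libraries and never more than 2 counts, and Rpl30, with counts in 64 libraries. Rpl26, Rpl30, Rps27 and Rpl34 encode core proteins that every ribosome carries, and they are low in these tables. Of the 77 members, 57 have processed pseudogenes named after them in the annotation (Rpl31 and Rps12 have 24 each, Rpl21 has 15), so reads shared with such copies can be split or lost, and levels of these members are uncertain to that extent. Rpl32l is annotated as a processed pseudogene, 96.0% identical to Rpl32 with a longest run of 94 identical bases. Read length was not examined, so how far its counts are separate from those of Rpl32 was not tested.

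The members took 2.06% to 19.3% of all counts (median 5.56%). The 16 libraries with a length slope of -0.5 or lower had shares of 6.30% to 19.3% (median 12.1%), and the 88 others 2.06% to 9.003% (median 5.31%). Across all 104 libraries the share and the length slope had a Pearson r of -0.92 and a Spearman rho of -0.68, as a description of libraries that share tables, media and lines. Among the 88 libraries r was -0.58, in the SFH course -0.40 (n = 23), in the S/L course 0.082 (n = 20) and in the mTBLC libraries -0.94 (n = 7). A share should therefore be read beside the length slope, which is not printed for every library below. The level after removal of the length trend is used throughout: the median over the 71 members of the log2 level relative to the mean of all libraries, less the value that genes of the same length, members excluded, take in that library. This level still had r = -0.66 with the slope over the 104 libraries, -0.37 over the 88 and -0.86 over the 7 mTBLC libraries, so removal does not separate the 2 fully. In the fits, a gene is said to rise or fall where the edgeR quasi-likelihood test gave a Benjamini-Hochberg adjusted p under 0.05 over all genes tested. For most comparisons the count of members is also given with the length trend removed in the fit. Counts of other gene lists are given without that removal unless stated. Counts from DESeq2, from fits without some libraries and at an unadjusted p under 0.05 are given without the share of all genes, so a shift of all genes cannot be seen from them.

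**Figure D1:**
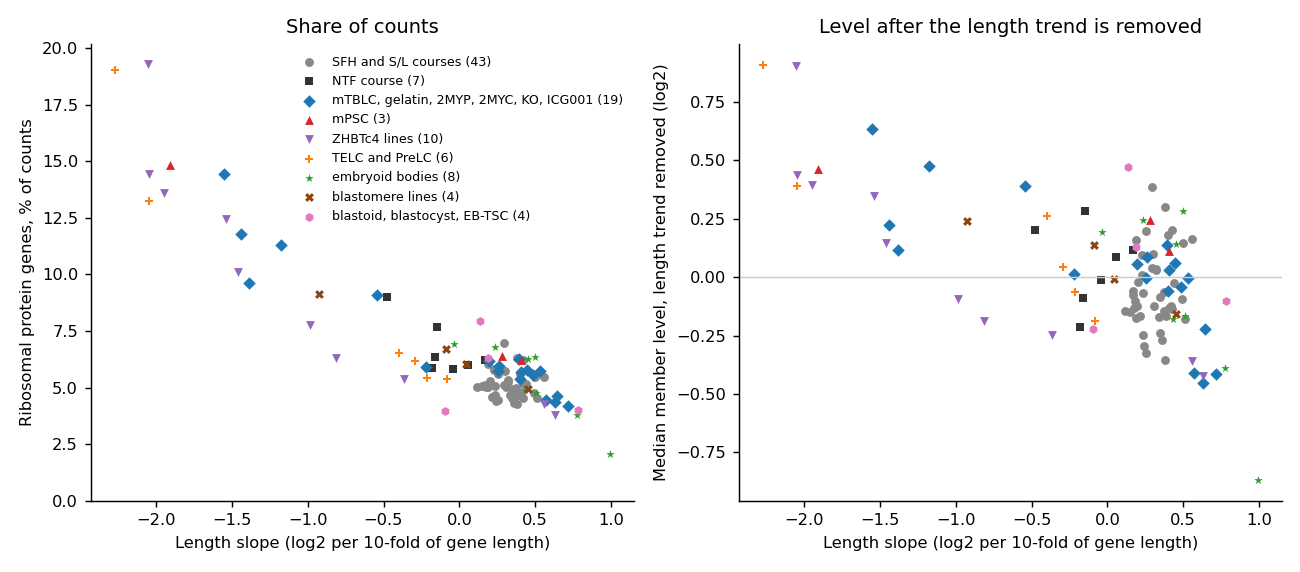
Each point is 1 of 104 libraries, coloured by its group; the x axis is the length slope in log2 per 10-fold of gene length, and the y axes are the members' share of counts in percent (left) and their median log2 level with the length trend removed (right). Shares above 9.003% lie only at slopes of -0.5 or lower, and after removal of the trend the 16 libraries with these slopes still have a median level of 0.39, against -0.060 in the 88 others.

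In S/L medium, the medium of the mPSCs, the member level with the length trend removed was below that of the 0 h library up to 28 h. From 36 h on it was above that library. The share of counts was 5.18% at 0 h, 4.80%, 4.69%, 4.56% and 4.67% at 4, 8, 12 and 16 h, and 6.06% at 48 h. The level with the length trend removed was -0.024 at 0 h, -0.24 at 12 h, -0.25 at 16 h, 0.16 at 48 h and 0.39 at 88 h. All 7 libraries of 4 to 28 h lay below the 0 h library on this scale, and all 12 libraries from 36 h on lay above it. With 1 library at each time, single times have no replicate. The length slope stayed between 0.15 (20 h) and 0.56 (92 h) throughout the course.

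Fitted over the 20 libraries, 54 of 75 members tested rose and 4 fell between 0 h and 92 h, where 21.3% and 19.3% of all genes rose and fell. With the length trend removed 46 rose and 5 fell (background 19.8% and 21%). The median log2 fold change of the members was 0.48, against 0.0088 over all genes, and 0.36 with the length trend removed, against -0.036. Rpl13a, a large subunit protein that in human cells also acts outside the ribosome in the silencing of inflammatory mRNAs, had 904 CPM at 0 h and 1182, 1398, 1235, 1454, 1671 and 1206 CPM at 68, 72, 76, 80, 88 and 92 h, all above 0 h. Its fitted log2 fold change was 0.93 ± 0.14 (SE; adjusted p = 1.2e-05 in edgeR).

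Rpl4 had 2159 CPM at 0 h and 2907, 3300.2, 2963, 3362, 3854 and 3005 CPM at those 6 late times, again without overlap, and rose by 0.88 ± 0.11 (log2; adjusted p = 1.47e-06 in edgeR). Rpl11, which with Rpl5 and 5S rRNA can bind and inhibit the p53 ligase Mdm2, rose by 0.85 ± 0.12, and Rpl9 by 0.85 ± 0.10. Rpl3, at the heart of the peptidyl transferase centre, rose by 0.71 ± 0.13, Rpl39 of the exit tunnel by 0.74 ± 0.14, and Rps6, the target of S6 kinase in the small subunit, by 0.42 ± 0.12 (adjusted p = 0.000159, 0.000206 and 0.00788 in edgeR). Rps2 (0.33 ± 0.15) and Rpl41 (0.27 ± 0.12) did not pass.

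Among the 71 members of at least 5 CPM the median log2 fold change was 0.63 in the large and 0.41 in the small subunit, a difference that was not tested. The ratio of the summed large to summed small subunit counts was 1.21 at 0 h, 1.32 at 24 h, 1.44 at 48 h and 1.38 at 92 h. The 4 members that fell were Rpl10l, Rps29, Rpl7l1 and Rps4l. Rps29, a small zinc-binding protein of the 40S head, had 523 CPM at 0 h, 411 at 24 h, 269 at 48 h and 247 at 92 h, so that every late library lay below 0 h. Its fitted log2 fold change was -0.62 ± 0.16 at 92 h (adjusted p = 0.004 in edgeR) and -0.37 ± 0.13 at 24 h (adjusted p = 0.0451 in edgeR).

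The late S/L libraries alternated. The shares at 72, 80 and 88 h were 6.24, 6.29 and 6.96%, and those at 68, 76 and 92 h were 5.46, 5.58 and 5.48%, without overlap. The median level of ribosome biogenesis genes, with the length trend removed, split at the same libraries, with log2 levels of -0.21, -0.060 and -0.32 at 72, 80 and 88 h, against 0.21, 0.40 and 0.090 at 68, 76 and 92 h. The step in share between 88 h and 92 h was larger than the difference between 92 h and 0 h. Without the 72, 80 and 88 h libraries, left out after their values were seen, 37 members rose at 92 h and 3 fell, and the median log2 fold change was 0.27. At 24 h, 15 members rose and 1 fell, where 12.5% and 12.4% of all genes did. When the length trend was removed 5 rose and 8 fell (background 10.8% and 13.7%), and the median was -0.053 instead of 0.13, so no direction of the group is given for 24 h.

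In SFH medium the same early minimum was present, and the later levels were lower than in S/L. The share was 5.15% at 0 h, 4.53%, 4.27%, 4.45%, 4.41% and 4.33% at 8, 12, 16, 20 and 28 h, 5.05% at 48 h and 4.76% and 5.07% at 92 and 96 h. The level with the length trend removed was -0.14 at 0 h, -0.35 at 12 h, -0.075 at 48 h and -0.091 at 92 h. The 6 libraries from 8 to 32 h had levels of -0.35 to -0.17, all below the 0 h library.

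Between 0 h and 92 h in SFH, 25 of 75 members rose and 4 fell, where 21.5% and 19.7% of all genes did, and with the length trend removed 11 rose and 8 fell (background 20.2% and 20.5%). The median log2 fold change was 0.21, and 0.034 with the length trend removed, against 0.003 and -0.035 over all genes. Without the 72, 80 and 88 h libraries 15 rose and 6 fell. Rpl11 rose by 0.61 ± 0.13, Rpl13a by 0.59 ± 0.12, Rpl7 by 0.57 ± 0.10 and Rpl6 by 0.54 ± 0.11 on the log2 scale (adjusted p = 0.000354, 0.000164, 3.15e-05 and 0.000149 in edgeR), and all of these passed with the length trend removed too. The members that fell were Rpl10l, Rpl29, Rps4l and Rps21.

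At 24 h in SFH, 9 members rose and 1 fell, where 13.5% and 12.7% of all genes did. After removal of the length trend 2 rose and 12 fell (background 13.1% and 12.6%), and the median was -0.15 (all genes -0.056) instead of 0.027 (all genes -0.041), so no direction of the group is given here either. Rpl39 had 270.0 CPM at 0 h and 225, 188 and 184 CPM at 20, 28 and 32 h. Its log2 fold change at 24 h was -0.26 ± 0.12 (adjusted p = 0.0943) and -0.45 with the length trend removed (adjusted p = 0.00204 in edgeR). The member that fell without that removal was Rpl29.

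**Figure D2:**
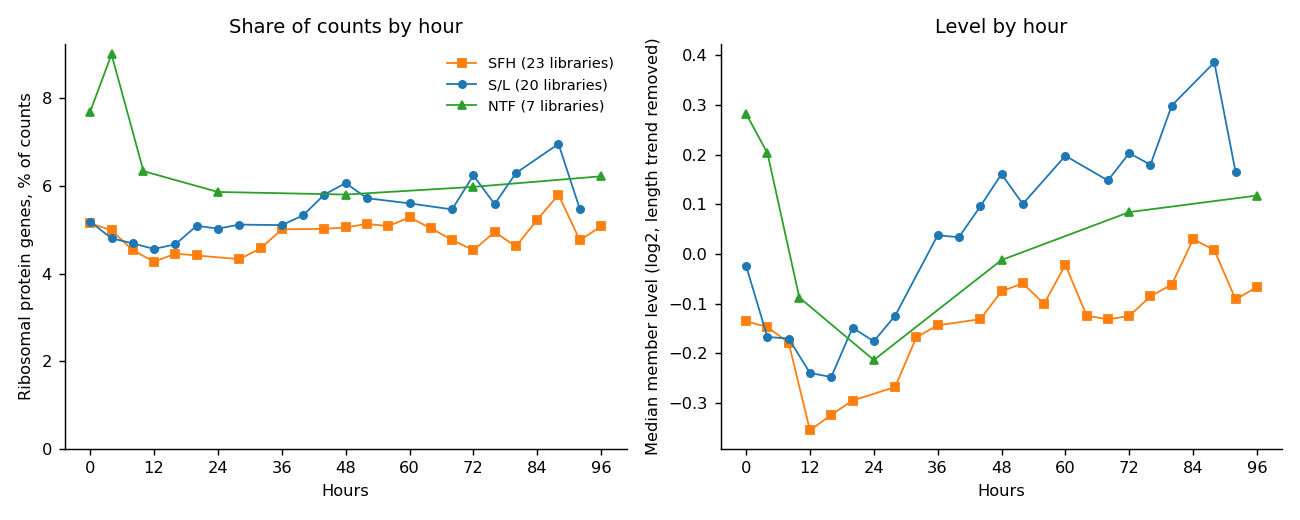
Share of counts (left, percent) and median member level with the length trend removed (right, log2 relative to the mean of 104 libraries) against hours, with 1 library per point, for the SFH, S/L and NTF courses. The level is lowest at 12 h in SFH, 16 h in S/L and 24 h in NTF, and from 36 h on every S/L library lies above its own 0 h library.

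The 2 courses, which came in separate count tables, were compared by the interaction of medium and time in 1 fit of 43 libraries. At 92 h the SFH change was lower than the S/L change for 10 of 75 members and higher for 0, where 6.6% and 5.3% of all genes were called, and 25 members had an unadjusted p under 0.05. With the length trend removed 11 were lower and 1 higher, and the median difference over members was -0.24 without and -0.25 with that removal. DESeq2 called 11 lower and 0 higher. Among members averaging at least 5 CPM, the largest difference was that of Rpl29, a heparin-binding protein of the large subunit. It had 62.5, 41.6, 36.9, 29.0 and 30.5 CPM at 0, 32, 48, 72 and 92 h in SFH, against 40.5, 48.8, 65.8, 65.2 and 53.8 CPM at 0, 24, 48, 72 and 92 h in S/L, and the difference of the log2 changes was -1.90 ± 0.30 (adjusted p = 9.69e-06 in edgeR).

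Rps24, a small subunit protein mutated in human Diamond-Blackfan anaemia, had 1095 and 872 CPM at 0 and 92 h in SFH, against 1349.7 and 1744 CPM in S/L, and its fitted log2 change at 92 h was 0.045 ± 0.10 in SFH (adjusted p = 0.755) and 0.80 ± 0.14 in S/L (adjusted p = 9.57e-05, both in edgeR). The difference of the changes was -0.79 ± 0.18 (adjusted p = 0.00147 in edgeR). Rpl23, Rps20, Rpl9, Rpl39, Rpl28 and Rpl17 differed by -0.62 to -0.52. Rpl23 is another protein able to bind Mdm2, and Rps20 sits in the head of the small subunit. The 0 h libraries of the 2 courses differed as well: Rps2 stood at 1941 CPM in SFH and 1128 CPM in S/L, and Rpl13 at 1064 and 653 CPM. Pluripotency markers (Pou5f1, Sox2, Nanog and Zfp42) summed to 1002 CPM at 92 h in SFH and 2246 CPM in S/L, and fibroblast markers to 241 CPM at 0 h and 44.1 CPM at 92 h in SFH, against 91.7 and 14.5 CPM in S/L. Their part in the difference was not tested.

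**Figure D3:**
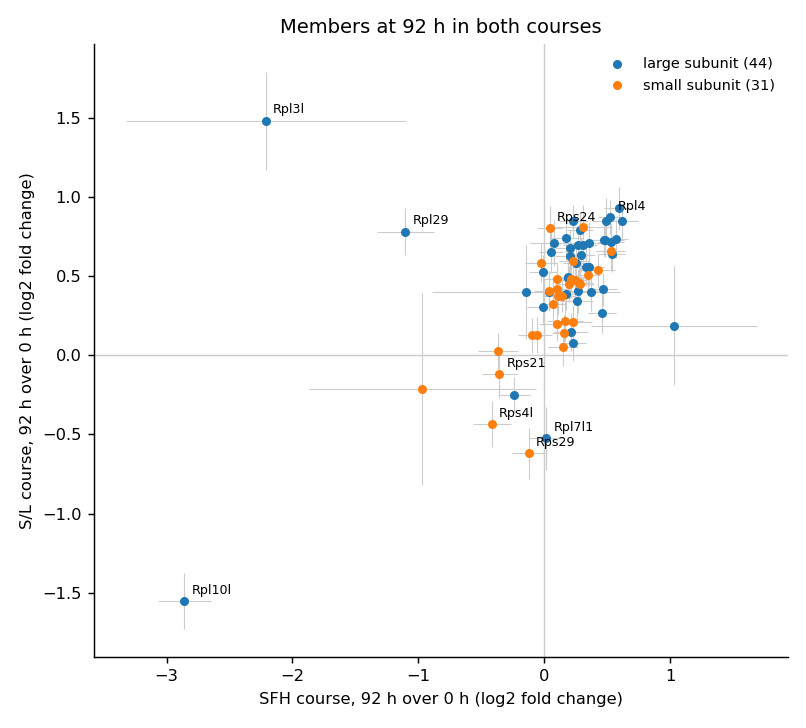
Each point is 1 of 75 members tested in both courses; x is the fitted log2 fold change at 92 h over 0 h in SFH, y the same in S/L, and bars are standard errors. Most members lie above 0 on both axes, Rpl29 and Rpl3l lie above 0 in S/L and below 0 in SFH, and Rpl10l is the lowest on both.

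In NTF medium the share was 7.70% at 0 h, 9.003% at 4 h, 6.34% at 10 h, 5.86% at 24 h, 5.80% at 48 h, 5.98% at 72 h and 6.22% at 96 h, while the length slope was -0.14, -0.48, -0.16, -0.18, -0.040, 0.060 and 0.17 at these times. The 4 h library had the highest share and the lowest slope of the course. On the scale without the length trend the level was lowest at 24 h (-0.21), as compared with 0.28 at 0 h and 0.12 at 96 h. Between 0 h and 96 h, 0 of 76 members rose and 3 fell (Rpl10l, Rps20 and Rps21), where 16.7% and 15.3% of all genes did, 9 members had an unadjusted p under 0.05, and DESeq2 called 2 higher and 6 lower. Once the length trend was removed 4 rose and 2 fell (background 17% and 15.4%), and the median was 0.16 instead of -0.062, so no direction of the group is given. Without the 96 h library 0 fell, without 72 h 1 did, and without 0 h 2 rose. Within the members the fitted change followed coding length: the 18 shortest had a median of -0.44 and the 18 longest 0.20 (Spearman rho 0.70 over 71 members, across genes that are not independent). Rps20 had 1176, 1794, 1243, 1251, 988, 793 and 701 CPM over the 7 times and changed by -0.79 ± 0.26 (adjusted p = 0.037 in edgeR).

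Across passages in 2MYCP medium the members were lower in the later passages. The share was 5.71, 5.78 and 5.54% at passages 1, 2 and 4, and 4.63, 4.18, 4.44 and 4.37% at passages 6, 8, 14 and 19. The level with the length trend removed was 0.030, 0.061 and -0.042 at the 3 early and -0.22, -0.42, -0.41 and -0.45 at the 4 later passages, so that the 2 sets do not overlap on either scale. In the fit of all 7 libraries on the log2 of passage, 3 members fell (Rpl6, Rps2 and Rpl14) and 0 of 76 rose, where 1.64% and 4.03% of all genes did, and 58 members had an unadjusted p under 0.05. With the length trend removed 35 fell and 0 rose (background 4.9% and 4.21%), and DESeq2 called 48 lower and 0 higher. Without passage 2, 6, 14 or 19, 0 of the 76 fell, and without passage 4, 8 did.

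The median member changed by -0.14 per doubling of passage, against 0.008 over all genes, and all 71 members of at least 5 CPM had a negative slope. Rps2, which lines the mRNA entry channel, had 1273, 1288 and 1111 CPM at passages 1, 2 and 4 and 1037, 835, 915 and 802 CPM at passages 6, 8, 14 and 19, a slope of -0.19 ± 0.043 per doubling (adjusted p = 0.0385 in edgeR). The early passages 2 and 4 differ from passage 1 and from all later ones in other members: Rps18 had 1299 and 1319.7 CPM there and 974, 832, 766, 786 and 785 CPM at passages 1, 6, 8, 14 and 19. Fibroblast markers summed to 477, 843 and 564 CPM at passages 1, 2 and 4 and to 1158, 1156, 1815 and 1628 CPM at the later passages, and the length slope was 0.41, 0.44 and 0.49 at the early and 0.64, 0.72, 0.57 and 0.63 at the later passages, so that both differ between the same 2 sets as the member level. The part of these in the passage difference was not tested.

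In 2MYC medium over passages 1 to 6 the share was 6.19, 5.75, 5.94, 5.38, 6.25 and 5.74%, and the level with the length trend removed lay between -0.059 and 0.14. No member rose or fell with passage in edgeR or DESeq2 (0 of 75, with 9 at an unadjusted p under 0.05), where 0% and 0.0145% of all genes did, nor did any with the length trend removed (background 0.0145% and 0.0362%). At matched passages 1, 2, 4 and 6, mTBLCs and 2MYC cells had shares of 5.71, 5.78, 5.54 and 4.63% and 6.19, 5.75, 5.38 and 5.74%. Of 75 members, 7 were lower in mTBLCs and 0 higher, where 6.38% and 6.37% of all genes were, so the number is near the background. In this comparison 23 members had an unadjusted p under 0.05, and DESeq2 called 16 lower and 0 higher. Without passage 1, 2 or 4 of either medium 2, 1 and 4 members were lower, and without passage 6 of either 2 were higher. After removal of the length trend 6 were lower and 0 higher (background 6.38% and 5.76%).

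Among the members that were lower in mTBLCs than in 2MYC cells were Rps2, Rpl13, Rps19, Rpl36, Rps20 and Rpl3l. Rps2 had 1273, 1288, 1111 and 1037 CPM in mTBLCs and 2155, 2137, 1973 and 2195 CPM in 2MYC cells, without overlap, a log2 difference of -0.89 ± 0.10 (adjusted p = 0.00429 in edgeR). Rpl13 had 1029, 781, 763 and 939.6 CPM in mTBLCs and 1444, 1325, 1349 and 1522 CPM in 2MYC cells (-0.74 ± 0.11, adjusted p = 0.00782 in edgeR). Rps19, another Diamond-Blackfan protein, had 629, 596, 563 and 517 CPM and 882, 854, 788 and 855 CPM (-0.60 ± 0.10, adjusted p = 0.01 in edgeR). Rps2 and Rpl13 also differed between libraries of 1 group: in the mPSC libraries without the one titled passage 0, Rps2 stood at 2503 and 1078 CPM and Rpl13 at 1574 and 871 CPM, the first above and the second below the matched 2MYC libraries in both genes.

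Set against mPSCs, established mTBLCs had lower ribosomal protein mRNA. The shares were 4.63, 4.18, 4.44 and 4.37% in established mTBLCs and 6.22 and 6.41% in the 2 mPSC libraries that do not stand apart. The length slopes of these 2 were 0.28 and 0.41, below those of established mTBLCs given above. The remaining mPSC library, titled as passage 0 of the 2MYCP series, had a share of 14.8% at a length slope of -1.91. This library is the only one of the mPSCs that shares a count table with the mTBLCs. With it, 52 of 76 members fell and 1 rose, where 9.88% and 9.53% of all genes did, at a median log2 fold change of -1.26 against 0.030 over all genes. Without that library 33 fell and the median was -0.58, and with the length trend removed as well 60 fell and the median was -0.66. The share of all genes that fell in these fits is not given here, so these counts cannot be set against a background. Keeping all 3 mPSC libraries, but without the length trend, 59 fell and 1 rose (background 14% and 9.23%), at -0.72. The median was negative with and without the library and the trend. The number of members that fell was as low as 13 without mTBLC passage 19, 16 without passage 8, 20 without passage 14 and 29 without passage 6, at medians of -1.31 to -1.23.

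The members with the largest falls were Rpl21, Rpl38, Rps14 and Rpl8. Rpl21 had 137, 126, 148 and 134 CPM in established mTBLCs and 200.2, 230.1 and 1142 CPM in mPSCs, the last being the passage 0 library, and fell by 2.17 ± 0.55 on the log2 scale (adjusted p = 0.0179 in edgeR). Rpl38, which takes part in the translation of Hox mRNAs in the mouse embryo, had 151, 136, 136 and 137 CPM and 201, 237 and 1086 CPM (-2.09 ± 0.52, adjusted p = 0.0176 in edgeR). Rpl3 had 915, 899.5, 916 and 863 CPM and 1954, 2100.3 and 2937 CPM, with all established mTBLCs below all mPSCs (-1.56 ± 0.24, adjusted p = 0.00172 in edgeR). The member that rose was Rpl30, with 17, 4, 8 and 14 counts in the 4 mTBLC libraries and 0, 1 and 0 in mPSCs, which is at the detection floor of 3 counts in mPSCs. Fibroblast marker sums overlapped between the groups in part, at 1158, 1156, 1815 and 1628 CPM and 689.8, 544 and 1169 CPM, and were not tested as a source.

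Cultures on gelatin and in 2MYP medium had higher shares than established mTBLCs, the controls that both comparisons share with the one against mPSCs. On gelatin the share was 9.62 and 5.91% at passages 7 and 8, at length slopes of -1.38 and -0.22, against 4.41 ± 0.189% in established mTBLCs (SD, n = 4). Of 76 members 26 rose and 0 fell, where 7.73% and 8.61% of all genes did, 58 had an unadjusted p under 0.05, and DESeq2 called 31 higher and 0 lower. After removal of the length trend 40 rose and 1 fell (background 13.5% and 8.5%), and the median log2 fold change was 0.59 instead of 1.08. Leaving out the passage 7 gelatin library, which had the lower slope, left 1 member that rose, at a median of 0.69, and leaving out passage 8 left 7 at 1.39. Without mTBLC passage 6, 3 rose, and without passage 8, 14 or 19, 1 rose. All 7 fibroblast markers fell on gelatin, and their part in the higher share was not tested.

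In 2MYP medium the shares were 11.3 and 9.10% at slopes of -1.18 and -0.55. There 39 of 76 members rose and 0 fell, where 3% and 3.31% of all genes did, 68 had an unadjusted p under 0.05, and DESeq2 called 57 higher and 1 lower. Once the length trend was removed 51 rose and 1 fell (background 3.56% and 2.65%), and the median was 0.83 instead of 1.43. Without either 2MYP library or mTBLC passage 19 no member rose, without mTBLC passage 8 or 14, 1 did, and without passage 6, 11 did. The medians without 1 library were 1.22 to 1.62. Rps2 had 3229 and 2745 CPM in 2MYP and 1037, 835, 915 and 802 CPM in established mTBLCs (1.97 ± 0.30, adjusted p = 0.0165 in edgeR), and Rps29 768 and 557 CPM and 431, 386, 460.1 and 488 CPM (0.82 ± 0.42, adjusted p = 0.219 in edgeR). On gelatin Rps29 rose, with 1307 and 692 CPM (1.41 ± 0.41, adjusted p = 0.0378 in edgeR), and Rps2 had 1954 and 1593 CPM (1.21 ± 0.30, adjusted p = 0.0211 in edgeR). Single libraries with ICG001 and with Ctnnb1 knocked out had shares of 14.4% and 11.8% at slopes of -1.55 and -1.44, and levels of 0.64 and 0.22 with the length trend removed, with no replicate and no test.

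**Figure D4:**
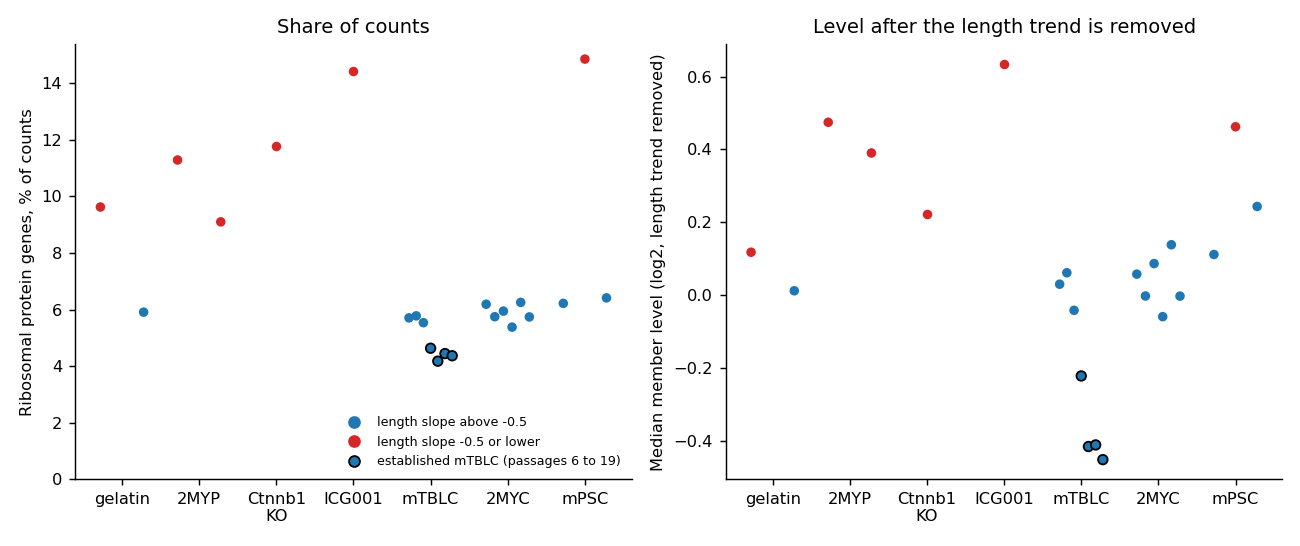
Share of counts (left, percent) and median member level with the length trend removed (right, log2) for each TC1-GFP library grown in 2MYCP medium or its variants and for mPSCs; red marks length slopes of -0.5 or lower and black rings mark the 4 established mTBLC libraries. On the right the established mTBLCs, from -0.45 to -0.22, lie below every other library shown.

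Lines from ICR blastomeres had shares of 4.92 and 9.14% (4nM, passages 5 and 4) and 6.06 and 6.73% (2-5nM), at slopes of 0.45 and -0.93 and 0.043 and -0.090. Against established mTBLCs 23 of 76 members rose and 1 fell, where 15.4% and 16.4% of all genes did, and with the length trend removed 32 rose and 3 fell (background 17.7% and 17.8%). The median log2 fold change was 0.76, and 0.39 with the length trend removed. Without the steep 4nM passage 4 library 11 rose, without 2-5nM passage 4 or any 1 of the mTBLC libraries 14 rose, and with 4nM or 2-5nM alone 5 and 7 rose. Medium, mouse stock, origin and count table differ together between these lines and mTBLCs, so their effects cannot be told apart.

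Against this general pattern, Rps18 fell and Rps3a1 had one of the largest rises. Rps18, at the head of the small subunit, had 231, 374, 268 and 271 CPM in the blastomere lines, against 832, 766, 786 and 785 CPM in established mTBLCs, and fell by 1.29 ± 0.29 on the log2 scale (adjusted p = 0.006 in edgeR). Rps3a1 had 1187, 2122, 1423 and 1654 CPM, against 503, 470.0, 508 and 498 CPM, and rose by 1.87 ± 0.27 (adjusted p = 0.000479 in edgeR). The blastomere lines and established mTBLCs do not overlap in either gene. The ICR blastocyst showed the same pair of levels, with 225 CPM of Rps18, the lowest of the 104 libraries, and 873 CPM of Rps3a1.

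Over the 5 ICR libraries Rps18 ranged from 225 to 374 CPM, against 291 to 2900.2 CPM (median 1081) in the 99 others, of which only the embryoid body library of mTBLCs at day 3 lay within the ICR range. Rps3a1 ranged from 873 to 2122 CPM, against 181 to 1212 CPM (median 525). Rpl21 was also at the low end, with 25.3 to 189 CPM in ICR libraries, against a median of 225 CPM elsewhere. No member lay wholly above or wholly below in the ICR libraries (0 of 71 each way, where 0.193% and 0.0964% of 11410 genes did). These 3 members were singled out after their values were seen. Rps18 has 3 and Rpl21 has 15 pseudogenes named after it, and Rps3a1 has the near relatives Rps3a2 and Rps3a3, so that reads could be assigned differently between mouse stocks, which was not tested.

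Among cells derived in SFH medium, TELC passages 0, 1 and 2 had shares of 5.37, 19.02 and 13.3% at slopes of -0.082, -2.27 and -2.04, against 6.17, 6.52 and 5.44% at slopes of -0.30, -0.40 and -0.21 in PreLC cells. No member was called in edgeR (0 of 76 in each direction, 29 with an unadjusted p under 0.05), where 0% of all genes were called each way, and DESeq2 called 5 higher and 0 lower. The median log2 fold change was 1.14, and 0.19 with the length trend removed. Leaving out TELC passage 0 alone gave 54 members higher at a median of 1.55, with the share of all genes called in that fit not given here. Within the members the shortest 18 had a median of 1.43 and the longest 18 of 0.60, and the length slopes of TELC passages 1 and 2 are the lowest of the 6 libraries.

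Among the embryoid bodies, the day 3 libraries stand apart most from their labels. The TC1 library of day 3 correlated best across genes with an mPSC library (r = 0.989) and held 3517 CPM of pluripotency markers. The mTBLC library of day 3 held 34.2 CPM, against 1639 CPM at day 8, and had its best match outside the embryoid bodies (r = 0.863). The mTBLC library of day 8 also had its best match outside them, the SFH library of 64 h (r = 0.965). Its pluripotency markers compare with 107 and 94.1 CPM at days 10 and 12. The shares at days 3, 8, 10 and 12 were 2.06, 6.93, 4.78 and 3.81% from mTBLCs, against 6.25, 6.37, 6.80 and 4.88% from TC1 cells. The length slopes on these days were 0.99, -0.033, 0.51 and 0.78 from mTBLCs, against 0.45, 0.50, 0.23 and 0.43 from TC1 cells. The mTBLC share of day 3 was the lowest of all libraries, and its length slope of 0.99 the highest.

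With day as a factor 0 of 75 members differed between embryoid bodies from mTBLCs and from TC1 cells in edgeR and in DESeq2, with 0 at an unadjusted p under 0.05, where 0% of all genes did. The median log2 fold change was -0.50 (-0.39 with the length trend removed), and -0.23 without day 3, with day 8 kept. No member changed with day either (0 of 75 in edgeR, 1 at an unadjusted p under 0.05, and 1 lower in DESeq2), where 0% of all genes did. Fibroblast markers, which also mark mesenchyme of embryoid bodies, reached 6534 CPM at day 12 from mTBLCs and 4056 CPM from TC1 cells, the lowest shares of their courses from day 8 on. Their part in the shares was not tested. Blastoids had shares of 7.96 and 6.32%, the blastocyst 3.96% and the EB-TSC library 3.99% (length slope 0.78).

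Several members that fell while most rose are paralogues of other members. Rpl10l is an intronless relative of Rpl10, known in the mouse for its role in male germ cells, where X-linked Rpl10 is silenced. The coding sequences of the 2 genes are 642 bases each and 84.7% identical, and the longest run without a difference is 23 bases, so that any longer read within the coding part covers a difference. The 60 bases from the start codon are shown because they show how the counts of the pair can be told apart (GENCODE M21 transcripts, GRCm38, plus sense), with the 9 differing bases in capitals.
Rpl10l: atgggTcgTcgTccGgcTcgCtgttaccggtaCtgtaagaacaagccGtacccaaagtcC
Rpl10: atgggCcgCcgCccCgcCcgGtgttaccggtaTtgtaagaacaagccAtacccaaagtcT

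Rpl10l was low late in every course while Rpl10 was not. In SFH it had 108, 131, 60.0, 32.8, 15.7 and 9.02 CPM at 0, 32, 60, 72, 92 and 96 h, in S/L 100.2, 84.5, 68.6, 40.5 and 29.5 CPM at 0, 24, 60, 72 and 92 h, and in NTF 89.4, 63.5, 30.9 and 11.7 CPM at 0, 48, 72 and 96 h. The SFH and NTF courses end at their lowest value, and S/L reached its lowest at 88 h, at 28.5 CPM. The fitted log2 fold change was -2.86 ± 0.21 at 92 h in SFH (adjusted p = 1.86e-12), -1.55 ± 0.18 in S/L (adjusted p = 4.39e-07) and -2.43 ± 0.42 at 96 h in NTF (adjusted p = 0.00144, all in edgeR). Rpl10 changed by 0.48 ± 0.10 in SFH, 0.73 ± 0.10 in S/L and 0.57 ± 0.26 in NTF, of which the first 2 passed. The SFH change of Rpl10l was lower than its S/L change, with a difference of -1.32 ± 0.30 (adjusted p = 0.00164 in edgeR).

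Outside the courses, Rpl10l was near 0 in late embryoid bodies and higher on gelatin and in 2MYP. It had 50.3, 38.7, 44.4 and 38.8 CPM in established mTBLCs and 45.8, 37.2 and 37.4 CPM in mPSCs, a difference that did not pass the test (-0.061 ± 0.23, adjusted p = 0.874 in edgeR), and 0.632 and 0.687 CPM at days 10 and 12 in embryoid bodies from mTBLCs, against 0.811 and 0.372 CPM from TC1 cells. It rose on gelatin to 160.2 and 113 CPM (1.89 ± 0.24, adjusted p = 0.000667 in edgeR) and in 2MYP to 164 and 118 CPM (1.95 ± 0.24, adjusted p = 0.0117 in edgeR). On gelatin this was the largest rise of any member averaging at least 5 CPM.

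**Figure D5:**
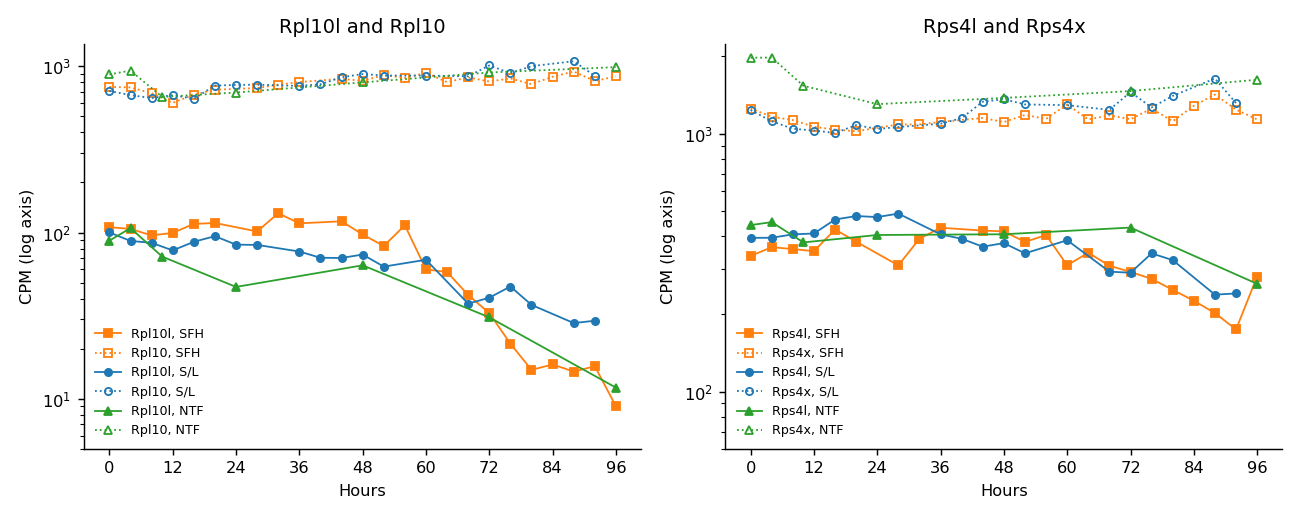
CPM on a log axis against hours, with 1 library per point: Rpl10l with Rpl10 (left) and Rps4l with Rps4x (right), filled for the paralogue and open for the parent, in the SFH, S/L and NTF courses. Rpl10l ends at 9.02 CPM in SFH, 29.5 CPM in S/L and 11.7 CPM in NTF, while Rpl10 ends at 871, 876 and 989 CPM.

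Rps4l, annotated both as a processed transcript and as a transcribed processed pseudogene and 80.0% identical to X-linked Rps4x, had 336, 432, 291, 174 and 279 CPM at 0, 36, 72, 92 and 96 h in SFH and 395, 490.4, 289 and 240.3 CPM at 0, 28, 72 and 92 h in S/L. It was highest at 36 h in SFH and 28 h in S/L, and fell by 0.42 ± 0.15 in SFH (adjusted p = 0.026 in edgeR) and by 0.43 ± 0.15 in S/L (adjusted p = 0.0225 in edgeR), while Rps4x changed by 0.25 ± 0.095 and 0.48 ± 0.11. Rpl7l1, a relative of Rpl7 found in early steps of ribosome assembly, rose by 0.64 ± 0.12 at 24 h in SFH (adjusted p = 0.000242 in edgeR) and fell by 0.53 ± 0.20 at 92 h in S/L (adjusted p = 0.0405 in edgeR). Rpl3l, the striated muscle relative of Rpl3, stayed between 0 and 2.89 CPM in both courses. It had 0.937, 0.366 and 0 CPM at 0, 92 and 96 h in SFH and 0.822, 2.89 and 1.48 CPM at 0, 72 and 92 h in S/L, so its called rise in S/L (1.48 ± 0.31, adjusted p = 0.000563 in edgeR) rests on 31 to 116 counts per library.

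Other genes of the pathway were followed as lists, with counts from fits in which the length trend was not removed unless stated. Of 15 further TOP mRNAs (Eef1a1, Eef2, Pabpc1, Tpt1 and other translation factors), 11 rose and 0 fell at 92 h in SFH (median log2 fold change 0.53; 21.5% of all genes rose), 10 rose and 0 fell in S/L (0.43; 21.3% of all genes) and 5 rose and 0 fell at 96 h in NTF (0.69; 16.7% of all genes). Over libraries, the member level and the level of these 15, both with the length trend removed, had r = 0.89 in the SFH course (n = 23) and 0.91 in the S/L course (n = 20), as a description of libraries that share a table. Nuclear genes of the respiratory chain, whose mRNAs are also short, had r = 0.14 and -0.031 with the member level in these courses. In other sets of libraries the TOP and respiratory lists had r = 0.72 and 0.67 (all 104), 0.71 and 0.42 (the 88 of higher slope), 0.64 and 0.70 (the 16 of lowest slope) and 0.87 and 0.95 (the 7 mTBLC libraries). Eef1a1, the elongation factor that brings tRNA to the ribosome, had 12499.5 CPM at 0 h, 10768 at 16 h and 16268 at 88 h in S/L.

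Ribosome biogenesis genes, such as Ncl, Npm1 and Fbl of the nucleolus, were called at both hours tested. At 24 h, 22 of 31 rose and 0 fell in SFH and 9 rose and 0 fell in S/L, where the libraries on either side had member levels, with the length trend removed, below 0 h (background 13.5% and 12.5% rising). At 92 h, 12 rose and 1 fell in SFH, and 2 rose and 7 fell in S/L, where 21.5% and 19.7% of all genes rose and fell in SFH and 21.3% and 19.3% in S/L. Along the mTBLC passages 9 fell and 0 rose (18 with the length trend removed; background 1.64% and 4.9% falling), and on gelatin 12 rose and 0 fell (7.73% of all genes rose). Of 5 p53 target genes, 4 fell and 0 rose at 24 h both in SFH and in S/L (12.7% and 12.4% of all genes fell), and 3 of 5 rose in established mTBLCs against mPSCs (9.53% of all genes). The 16 genes of mTORC1, its TOP effectors and the Myc family were mixed at 92 h, where 7 rose and 4 fell in SFH and 4 rose and 4 fell in S/L. Of 8 subunit genes that the name rule does not reach (such as Rplp0, Rplp1, Rplp2, Rpsa and Rack1), 2 rose and 1 fell in SFH and 2 rose and 0 fell in S/L at 92 h, and 4 fell in established mTBLCs against mPSCs (9.88% of all genes fell). All counts at 92 h stand beside the shares of all genes given above for that hour, and the differences from them were not tested. In lists of other short or housekeeping genes, of 14 core proteasome genes 11 rose at 92 h in SFH and 3 rose and 1 fell in S/L, of 14 Sm and LSm genes tested in SFH 9 rose, of 15 in S/L 4 rose and 1 fell, and of 51 respiratory chain genes 8 rose and 4 fell in SFH and 12 rose and 5 fell in S/L.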

How the data were processed

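RNA was sequenced in bulk from 104 libraries of 24 groups, defined by the labels' medium, genotype, line, passage, day or hour, and deposited as 18 tables of counts per gene. Library preparation used the VAHTS Universal V8 kit, per the labels' protocols, and the submitters' processing notes name Trimmomatic, HISAT2 and featureCounts without versions or roles, and the builds hg38 and mm10. Strand settings and annotation are not given in the sources used here, so overlapping genes on opposite strands cannot be told apart. The deposited counts were used as they stand. Even numbers made up 69.3% to 92.7% of low counts per library, so fits were repeated on halved counts. No columns of 2 libraries were identical. Rows with dates in place of gene names (26 per file) were left out. Lengths came from GENCODE M21 and promoter windows from RefSeq, both GRCm38.

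The members, the other lists and the tests were chosen with earlier results of these data known. The members named are Rpl3, Rpl4, Rpl10, Rps6, Rps4x, Rps2, Rpl41, Rpl39, Rps29, Rpl3l, Rpl10l, Rps4l and Rpl7l1 whatever their result, and per comparison and direction up to 4 with the largest change past the threshold. Others were named after their values were seen. Some genes are not reported here by name. CPM are counts scaled to a common total over all genes. Fits used edgeR 4.0.16 in R 4.3.3 (filterByExpr, TMM scaling, quasi-likelihood F test, Benjamini-Hochberg adjustment over all genes tested, threshold 0.05). Hours entered the course fits as natural splines (3 degrees of freedom, and 2 in NTF), passages as log2, and mTBLC against 2MYC and the embryoid bodies with passage or day as a factor. SE was taken as the size of the log2 fold change divided by the root of the F statistic. The length trend of a library was a natural spline with 4 degrees of freedom over 11309 non-member genes averaging at least 5 CPM (pseudocount 0.5 CPM), entered as an offset. DESeq2 1.42.0 was an alternative, beside other scalings, filters and left-out libraries. Scripts were tested on simulated counts with known changes.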

Additional observations from a re-analysis of the deposited data

Results flagged for a closer look

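Of 120 checks of a sample standing apart from the rest of its group, 8 were positive, where chance gives about 1 in 20. Rpl7l1 stood at 246.5 CPM in mTBLC passage 6, against 193 to 199 CPM in the 3 other established mTBLC libraries, and at 227 CPM in 2MYC passage 4, against 269.7 to 293 CPM in the other 5. Rpl10l stood at 58.3 CPM in the ZHBTc4 library of passage 1 in 2MYCP with doxycycline, against 2.94 to 14.3 CPM in the 4 others. In embryoid bodies from mTBLCs, day 8 stood apart with 84.6 CPM of Rpl10l (0.632 to 2.16 CPM on the other days) and 356 CPM of Rps4l (75.8 to 98.7 CPM). In those from TC1 cells, day 3 stood apart with 51.1 CPM of Rpl10l (0.372 to 1.17 CPM) and 2.37 CPM of Rpl3l (0.0811 to 0.248 CPM). These are the embryoid body libraries with the highest pluripotency marker sums of their course, 1639 and 3517 CPM. Rps4l stood at 262 CPM at 96 h in NTF, against 379 to 454 CPM at the earlier hours.

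The change between 0 h and 92 h differed between SFH and S/L for 10 members in the interaction test of edgeR at an adjusted p under 0.05. The differences, on the log2 scale, were -3.57 for Rpl3l, -1.90 for Rpl29, -1.32 for Rpl10l, -0.79 for Rps24, -0.62 for Rpl23, -0.61 for Rps20, -0.61 for Rpl9, -0.57 for Rpl39, -0.52 for Rpl28 and -0.52 for Rpl17. For Rpl3l this rests on 0 to 27 counts per library in SFH and 31 to 116 in S/L.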

How the results depend on the processing

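All values here are numbers of members that rose or fell unless stated, without the share of all genes called under the same alternative. Over all alternatives, 303 such counts stayed within 1.5 times and 91 moved further. Of 197 medians, 9 changed sign, 4 of them on removal of the length trend (24 h in S/L and SFH, 96 h in NTF, and the day trend of embryoid bodies, at -0.024 instead of 0.020). The one at 24 h in S/L exceeded the spread between libraries before the change. Beside it, 12 medians moved by more than that spread and 184 by less. Of the values of single named members 2626 kept direction and side of the threshold, 224 lost and 77 gained significance, and 6 changed sign. The cause was not tested except where fewer libraries or genes were fitted.

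After removal of the length trend, 40 rose and 1 fell on gelatin, 1 fell in 2MYP, 35 fell with mTBLC passage, 5 rose and 8 fell at 24 h in S/L (median -0.053), 2 rose and 12 fell at 24 h in SFH, 11 rose and 8 fell at 92 h in SFH, 1 was higher in SFH than in S/L, 4 rose in NTF, and 3 fell in the blastomere lines. With DESeq2's test, 1 fell in 2MYP, 48 fell with mTBLC passage, 16 were lower in mTBLCs than in 2MYC cells, 2 fell at 24 h in SFH, 2 rose and 6 fell in NTF, 5 were higher in TELC, and 1 fell with day in embryoid bodies. With DESeq2's size factors, 11 rose on gelatin, 2 fell at 24 h in SFH and 5 fell in NTF. With genes of at least 5 CPM on average only, 0 rose in mTBLCs against mPSCs, 6 rose on gelatin, 4 fell at 24 h and 15 rose at 92 h in SFH, and 8 fell in NTF. Without a filter 0 fell at 24 h in S/L and 5 fell in NTF, and with halved counts 5 fell in NTF. With a straight line in hours, 51 rose and 4 fell at 24 h in S/L, 29 rose and 6 fell at 24 h in SFH, and 1 was higher and 20 lower in SFH than in S/L. Signs then changed at 24 h for Rpl39 (0.22) and Rps4l (-0.18) in S/L and for Rps4x (0.075), Rpl10l (-0.82), Rps4l (-0.16) and Rpl7l1 (-0.091) in SFH. With 4 degrees of freedom, 9 rose at 24 h in S/L, 1 rose and 4 fell at 24 h in SFH, 15 rose at 92 h in SFH, and 16 were lower in SFH than in S/L. Without 72, 80 and 88 h, an alternative added after seeing the data, 15 rose at 92 h in SFH. With the passage 0 library 67 fell with mTBLC passage, and with passage as a plain number 0 did. With 4nM lines alone 5 rose and 0 fell, and with 2-5nM alone 7 rose.

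Leaving out 1 library at a time, 13 to 67 fell and 0 to 1 rose in mTBLCs against mPSCs, 1 to 7 rose on gelatin, 0 to 11 rose in 2MYP, 0 to 8 fell with mTBLC passage, 1 to 9 were lower and 0 to 2 higher in mTBLCs than in 2MYC cells, 0 to 4 fell and 0 to 2 rose in NTF, 0 to 54 were higher in TELC, 11 to 28 rose in the blastomere lines, and 0 to 1 fell with day in embryoid bodies. Where this left 1 library in a group, it was assumed to vary like the others.

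Not every pair of same-numbered libraries deviated together: correlations of deviations were 0.0112 to 0.17 for mTBLC and 2MYC and 0.0863 to 0.25 for TELC and PreLC by passage, and for embryoid bodies 0.0576 at day 3 and 0.29 to 0.57 at days 8, 10 and 12. Without the replicate block of passage 7 members were lower in mTBLCs than in 2MYC cells, without the block of day 0 differed in embryoid bodies, and with a block of passage 0 differed between TELC and PreLC. At a depth of 1.04 M counts, and for members below 5 CPM, counting error limits what can be seen.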

Other observations

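The balance between members also differed in some of the libraries of low length slope. The ratio of Rpl13a to Rps2 counts was 427 in the ZHBTc4 library of passage 2 in 2MYC with doxycycline, and 15.7 in that of passage 3. The passage 2 library has 17060 and 40 counts of these genes and is the shallowest of all, at 1.04 M counts. The ratio was 19.1 in TELC passage 1, 3.20 in TELC passage 2 and 6.93 in the doxycycline library of ZHBTc4 passage 12 in 2MYCP. Not all libraries of low slope had a high ratio. In 2MYP, at slopes of -1.18 and -0.55, Rpl13a ranged from 1659 to 2083 CPM, below Rps2 at 2745 to 3229 CPM. The lowest ratio was 0.354, in the EB-TSC library, whose slope was 0.78. These 2 genes were singled out after their values were seen.

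The ZHBTc4 libraries had shares of 4.29% in S/L with doxycycline and 7.76% in S/L without, the latter at a length slope of -0.98. In 2MYCP the 5 libraries with doxycycline ranged from 3.79% to 12.5%, and the 1 without had 13.6%. The 2 libraries in 2MYC with doxycycline had 19.3% and 14.5%, and that of passage 2 is the shallowest of all libraries, at 1.04 M counts. With no more than 1 library without doxycycline in each medium, these values were not compared.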
